A study of Mus musculus with 18 samples.

Results

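The 9 genes of the HoxB cluster from Hoxb1 to Hoxb9 were followed through motor neuron differentiation and through the forced expression of 4 HoxC genes. They were taken by symbol from 27179 genes counted by RNA-seq, through their Entrez identifiers, and all 9 had counts and entered the tests. Mouse embryonic stem cells were differentiated into motor neurons and interneurons with 1 µM retinoic acid and 0.5 µM of the Hedgehog agonist SAG, which every group received. The libraries came from 6 groups of 3. Day 2 progenitors came from the iCre line without doxycycline (Dox). Control neurons were collected on day 4 from the iHoxc6 line without Dox. The iHoxc6, iHoxc8, iHoxc9 and iHoxc10 neurons were grown with 3 µg/ml Dox for the last 48 h up to day 4, which switched on a single Flag-tagged transgene at the Hprt locus in a line of its own. Each transgene carries its Hox gene without its cluster neighbours, but the cells also expressed HoxC genes of their own, Hoxc4 among them. The uninduced state of the iHoxc8, iHoxc9 and iHoxc10 lines was not measured. The study describes the replicates as independent differentiations.

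The HoxB cluster encodes homeodomain transcription factors that assign position along the hindbrain and spinal cord. Its genes lie on the same strand, and genes at the Hoxb1 end are known to be switched on earlier and further to the front of the embryo than genes at the Hoxb9 end, an arrangement called collinearity. Hoxb1 to Hoxb5 belong to the anterior paralog groups, Hoxb6 to Hoxb8 to the central groups and Hoxb9 to the posterior groups. Retinoic acid, which reaches enhancers at the front of the cluster, Cdx factors and polycomb complexes are known to control it. In the spinal cord, posterior Hox genes are known to hold down more anterior ones.

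In the RefSeq annotation of GRCm38, the genes run along chromosome 11 on the plus strand from Hoxb9 (start 96271330) to Hoxb1 (end 96368254). RefSeq promoter windows were held for 3 of the 9 genes, and the 250 bases before the start site are shown here. They can be read beside 3 unlike patterns. Hoxb1 fell from day 2 to day 4, and Hoxb4 fell in both iHoxc9 and iHoxc10 neurons. Hoxb8 held the largest share of what was left of the cluster in iHoxc9 neurons, per kilobase of merged exon. Capitals mark matches on either strand to TGATNNAT, the form of joint HOX and PBX sites, to TAAT, the core of many homeodomain sites, and to ATAAA, a core favoured by posterior Hox proteins. Matches of the last form read TTTAT on the minus strand. The windows lie at chr11:96365508-96365757 for Hoxb1, chr11:96318017-96318266 for Hoxb4 and chr11:96281655-96281904 for Hoxb8. They end at the start of a RefSeq transcript, which for Hoxb1 and Hoxb8 lies inside the span of the gene.
Hoxb1: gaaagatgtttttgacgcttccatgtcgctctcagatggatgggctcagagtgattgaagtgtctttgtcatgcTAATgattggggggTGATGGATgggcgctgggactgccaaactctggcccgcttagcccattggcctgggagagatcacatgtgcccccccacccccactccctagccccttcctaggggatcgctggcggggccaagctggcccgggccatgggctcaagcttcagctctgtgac
Hoxb4: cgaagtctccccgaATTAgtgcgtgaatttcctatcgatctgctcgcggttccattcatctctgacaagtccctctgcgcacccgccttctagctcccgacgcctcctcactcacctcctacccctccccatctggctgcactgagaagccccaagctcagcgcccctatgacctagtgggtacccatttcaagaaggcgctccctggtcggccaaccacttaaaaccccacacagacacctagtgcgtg
Hoxb8: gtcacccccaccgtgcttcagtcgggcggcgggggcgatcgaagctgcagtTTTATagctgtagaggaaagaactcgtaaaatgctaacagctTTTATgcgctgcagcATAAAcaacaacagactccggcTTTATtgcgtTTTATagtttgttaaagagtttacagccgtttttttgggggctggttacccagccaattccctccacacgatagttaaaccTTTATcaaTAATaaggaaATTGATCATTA

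The windows differed in what they held. The Hoxb8 window held 6 matches to ATAAA, and 0.393% of the 32851 windows of the same length held as many, while 37.3% held at least 1. The Hoxb1 and Hoxb4 windows held 0. TGATNNAT occurred once in the Hoxb1 window, 162 to 155 bases before the start, and once in the Hoxb8 window, 11 to 4 bases before it, against 7.68% of all windows with a match. The last TAAT match of Hoxb8 overlaps that site by 1 base. TAAT was the only match of the 3 forms in the Hoxb4 window, which had a G+C content of 58.0%, against 59.2% for Hoxb1 and 44.4% for Hoxb8. These letters describe the windows and do not show that a factor binds there.

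Total counts per library ranged from 24498630 to 33168533, so that 3 counts stood for 0.0904 to 0.1225 CPM (counts scaled to library size), a floor that covers counting error only. Levels are CPM scaled by edgeR's TMM factors, given as mean ± SD over 3 libraries. The 18 libraries entered 1 quasi-likelihood fit in edgeR, from which every fold change, standard error and p was taken, and genes under 0.01 after Benjamini-Hochberg adjustment over 20944 genes are spoken of as called. The libraries came from 4 sequencing runs. Control and iHoxc6 neurons shared a run, iHoxc9 and iHoxc10 neurons shared a run, and day 2 progenitors and iHoxc8 neurons each had their own. The HoxC gene thus cannot be told apart from the line in any comparison but iHoxc6 against control. Nor can it be told apart from the run in any but that and iHoxc9 against iHoxc10. Every iHox group received Dox and control and day 2 progenitors did not. In all comparisons of an iHox group with these, iHoxc6 against control included, the HoxC gene cannot be told apart from Dox. Induced genes reached their highest level where they were induced, with means of 514 CPM for Hoxc6, 389 CPM for Hoxc8, 224 CPM for Hoxc9 and 430.1 CPM for Hoxc10, against 3.18 CPM for Hoxc6 and values under the floor for the others in control. Of the 7 motor neuron markers, Isl1, Mnx1 and Chat among them, 7 were higher in control neurons than in day 2 progenitors, against 21.2% of all genes. The second day 2 library stood apart, with 5.76% of its counts on a single identifier that has no symbol, against a highest share of 1.19 to 2.02% in the other libraries. In the third day 2 library 7 mesoderm and endoderm markers summed to 83.9 CPM, against 31.5 and 31.8 CPM in the others. In the second control library 6 motor neuron progenitor markers summed to 622 CPM, against 291 and 333 CPM. Exons of Hoxb2, Hoxb3 and Hoxb5 share 953, 2250 and 100 bases with the antisense genes Hoxb3os and Hoxb5os in GENCODE, and Hoxb6 lies within the span of Hoxb5os. The strand setting of the counting is not given in the sources used here, so reads of these genes and of their antisense partners cannot be told apart.

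**Figure D1:**
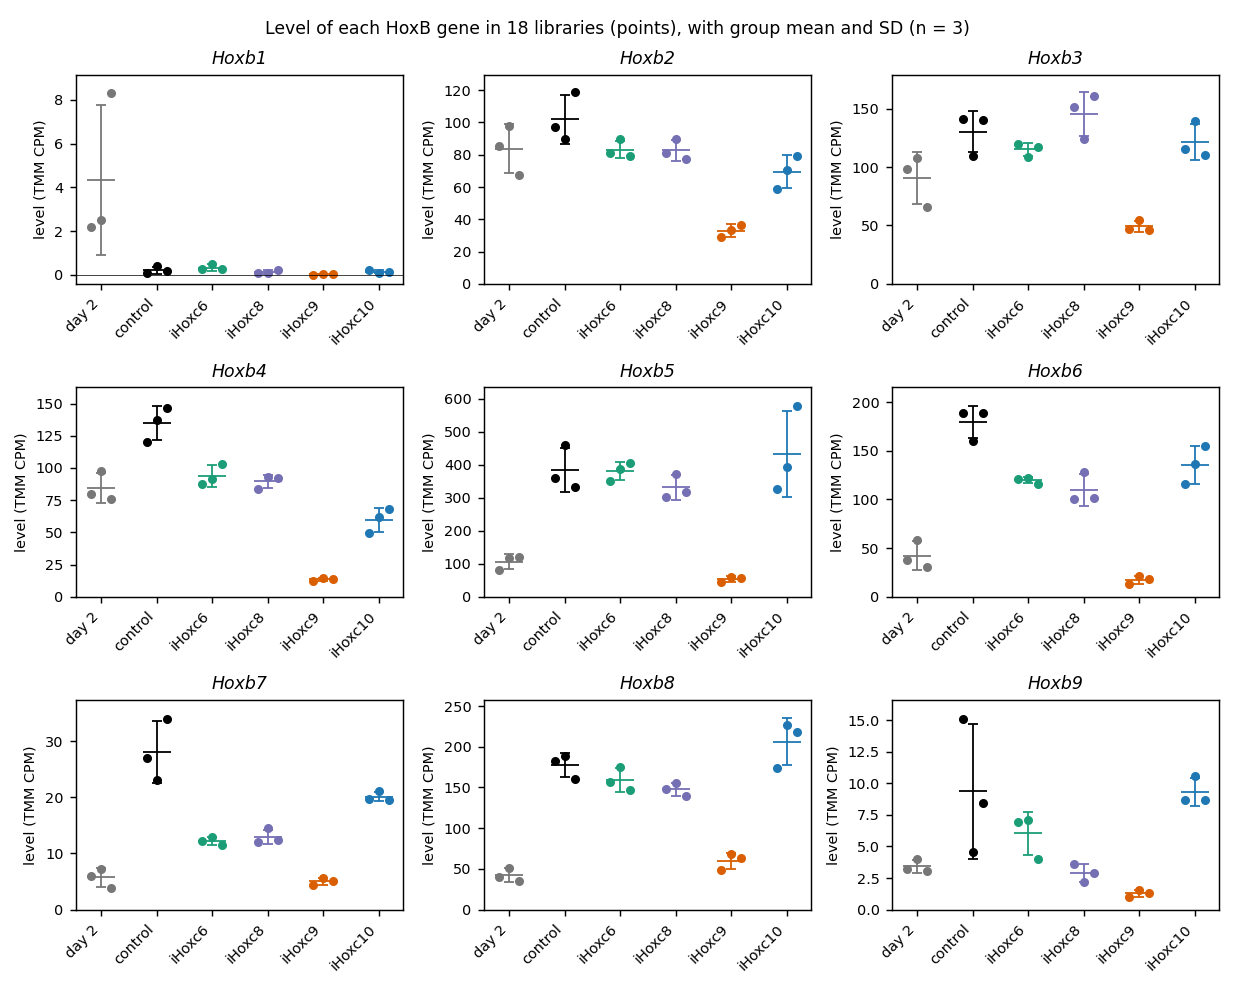
Level of each HoxB gene (y axis, TMM-scaled CPM, linear, own scale per panel) in each of 6 groups (x axis). Points are single libraries and bars are the group mean ± SD (n = 3). The 3 iHoxc9 libraries lie below all 3 control libraries in every panel, and Hoxb1 is high only in day 2 progenitors.

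Day 2 progenitors were compared with control neurons to see how the cluster changed as progenitors became neurons. Of the 9 genes, 7 were higher in control neurons, 1 was lower and 1, Hoxb2, was not called. Among all genes tested, 21.2% were higher and 21.2% lower, and the median log2 fold change of the 9 genes was 1.45 against 0 for all genes. Past a log2 fold change of 2 as well, 3 were higher and 1 lower, against 6.74% and 5.82% of all genes. The groups did not overlap for 8 of the 9, with control above in 7 and below in 1, against 25.2% and 25% of all genes. The summed level of the 9 genes was 463 ± 73.0 CPM in day 2 progenitors and 1146 ± 23.3 CPM in control neurons (SD, n = 3 each). The groups did not overlap, and the exact two-sided permutation test gave p = 0.1, the smallest that 3 against 3 libraries allow, with an adjusted p of 0.12 over 6 comparisons.

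Hoxb1, which marks a single hindbrain segment in the embryo, was the gene that fell. Its levels in the 3 day 2 libraries were 2.19, 2.50 and 8.31 CPM, and those in control were 0.0642, 0.385 and 0.187 CPM, from 2, 10 and 5 reads. The groups did not overlap, and the third day 2 library, the library with the high mesoderm and endoderm markers, held the highest value. The log2 fold change was -4.37 (standard error 0.56, edgeR adjusted p = 6.34e-07), and over all alternatives it stayed between -5.11 and -3.49. Summed over the group, 17 reads in control against 406 in day 2 progenitors put the control level at 4.58% of the day 2 level, with a 95% exact interval of 2.64 to 7.43% for counting error. The part of the mesoderm and endoderm markers in this difference was not tested.

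Hoxb2 to Hoxb4, which are known for roles in the hindbrain and upper neck, changed less than the genes behind them. Hoxb2 was at 85.5, 97.9 and 67.6 CPM on day 2 and at 97.5, 89.8 and 119 CPM in control, with overlapping groups and an adjusted p of 0.12 by edgeR. Hoxb3 rose from 98.5, 108 and 65.7 CPM to 141, 109.9 and 140.2 CPM. Its log2 fold change of 0.52 (standard error 0.16) stood at the edge of the threshold, with an edgeR adjusted p of 0.00986. Without the third day 2 library it was 0.34 with an adjusted p of 0.061. Hoxb4, an early target of retinoic acid, rose from 79.9, 97.8 and 75.7 CPM to 120.3, 137 and 147 CPM. Its groups did not overlap, and the log2 fold change was 0.67 (standard error 0.14, edgeR adjusted p = 0.000291).

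Hoxb5 to Hoxb9 rose more. Hoxb5 was at 79.9, 119 and 121 CPM on day 2 and at 360.2, 459 and 333 CPM in control, a log2 fold change of 1.85 (standard error 0.20, edgeR adjusted p = 5.9e-08). Hoxb6 was at 37.2, 58.7 and 30.8 CPM and then at 189, 160.2 and 188 CPM, a log2 fold change of 2.09 (standard error 0.20). Hoxb7 was at 5.96, 7.29 and 3.90 CPM and then at 27.1, 23.0 and 34.0 CPM, and its log2 fold change of 2.29 (standard error 0.19) was the highest of the 9. All 3 control libraries lay above all 3 day 2 libraries for each of these genes. Hoxb8 was at 40.0, 51.4 and 34.6 CPM and then at 183, 188 and 161 CPM, a log2 fold change of 2.08 (standard error 0.16). Hoxb9, the gene of the posterior group, was at 3.20, 4.03 and 3.06 CPM and then at 15.1, 4.58 and 8.42 CPM. Its groups also did not overlap, with a log2 fold change of 1.45 (standard error 0.31, edgeR adjusted p = 0.000372), but the second control library, with the high progenitor markers, lay close to day 2. Control Hoxb9 had the widest spread after Hoxb1 among the 9 genes, with an SD of 56.8% of the mean.

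Levels of different genes were compared per kilobase of merged exon length. These lengths depend on the annotation. Hoxb2 had 3488 merged bases but 1628 in the basic GENCODE annotation, and Hoxb5 had 2786 and 1895. The lengths of Hoxb4, Hoxb6 and Hoxb8 were the same in both. The orders given hold for merged lengths, and with basic lengths Hoxb2 lay above Hoxb4 in control and on day 2. In control neurons Hoxb5 was highest at 138 ± 23.8 CPM per kilobase, followed by Hoxb6 at 91.2 ± 8.41, Hoxb8 at 67.4 ± 5.52 and Hoxb4 at 52.5 ± 5.20 (SD, n = 3). Hoxb3 (30.7), Hoxb2 (29.3), Hoxb7 (18.2), Hoxb9 (3.64) and Hoxb1 (0.0914) followed. The order did not run along the cluster, with the middle genes at the top and both ends at the bottom. On day 2 the order began with Hoxb5 at 38.2 ± 8.23 and Hoxb4 at 32.9 ± 4.59 CPM per kilobase, with Hoxb2 next. Hoxb6 to Hoxb9 together held 26.6, 29.1 and 22.6% of the summed HoxB level per kilobase in the day 2 libraries and 44.4, 38.6 and 42.8% in the control libraries. The shares did not overlap, with a difference of 15.8 percentage points (exact permutation test, p = 0.1, adjusted p = 0.2 over 6 comparisons). With Hoxb3 and Hoxb6 left out, the difference was 11.2 percentage points. Hoxb6 shares no exon bases with an antisense gene, while Hoxb2 and Hoxb5, which do, were kept in.

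**Figure D2:**
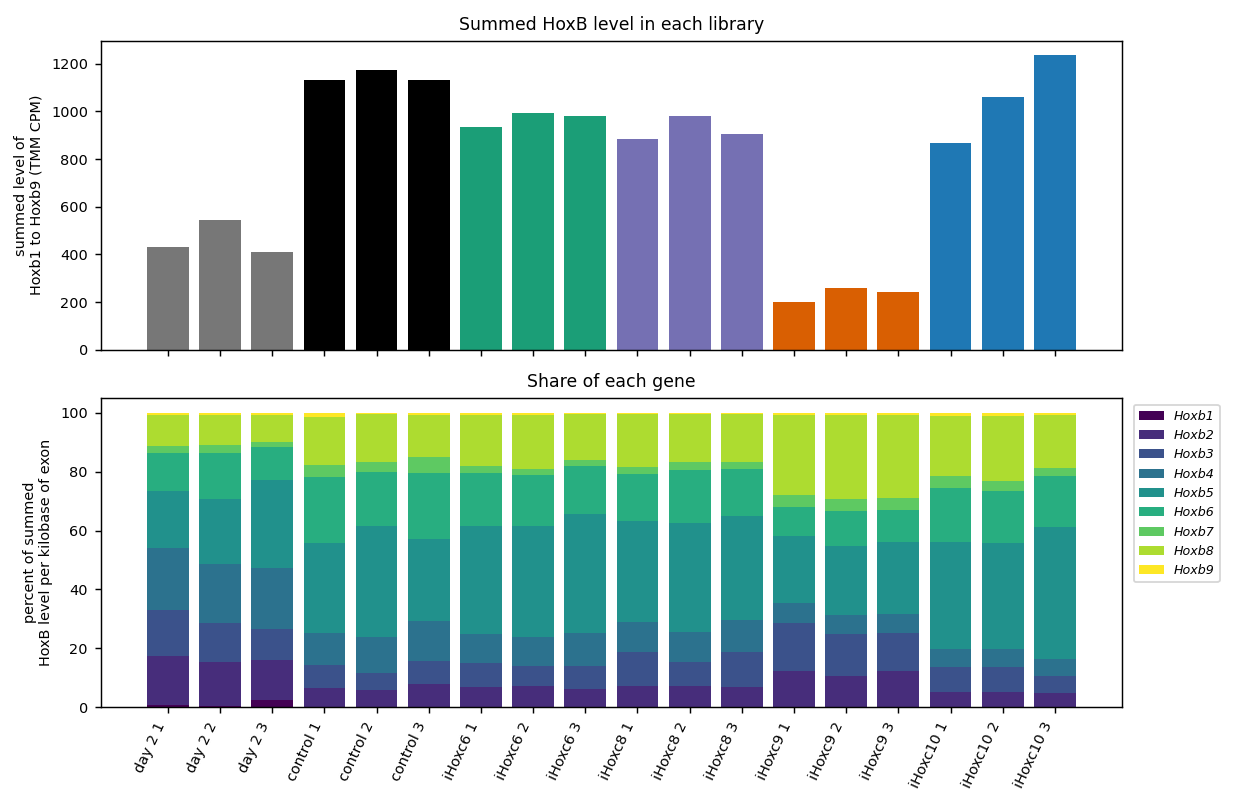
Summed TMM-scaled CPM of Hoxb1 to Hoxb9 (upper y axis, from 0) and the percent of the summed level per kilobase of merged exon held by each gene (lower y axis) in each of 18 libraries (x axis, group and replicate number). The 3 iHoxc9 libraries sum to 199 to 257 CPM against 1131 to 1173 CPM in control, and Hoxb8 takes 27.2 to 28.6% of the iHoxc9 level.

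Each iHox line was compared with control neurons to see how its HoxB levels differed. In iHoxc9 neurons, with a posterior group gene that belongs to the thoracic spinal cord, 8 of 9 HoxB genes were lower and 0 were higher, against 7.13% of all genes lower and 6.95% higher. At a log2 fold change below -2 as well, 5 of 9 were called, against 1.17% of all genes. The median log2 fold change was -2.85, against 0.00126 for all genes. The summed level was 199, 257 and 242 CPM in the 3 iHoxc9 libraries and 1134, 1173 and 1131 CPM in control, so that iHoxc9 neurons held 20.3% of the control level. The groups did not overlap (exact permutation test, p = 0.1, adjusted p = 0.12 over 6 comparisons). In bulk RNA, fewer cells that express a gene and less RNA per cell cannot be told apart.

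Among the anterior genes, Hoxb4 fell most. Its levels were 12.2, 14.7 and 13.5 CPM in iHoxc9 and 120.3, 137 and 147 CPM in control, with a log2 fold change of -3.32 (standard error 0.15, edgeR adjusted p = 8.67e-13). Hoxb5, which is expressed in the vagal and neck region, followed with 43.2, 59.0 and 58.0 CPM against 360.2, 459 and 333 CPM and a log2 fold change of -2.85 (standard error 0.21, edgeR adjusted p = 1.57e-09). iHoxc9 neurons thus held 9.99% of the control level of Hoxb4 and 13.9% of that of Hoxb5. Hoxb2 and Hoxb3 fell less and were both left at over 30% of control. Hoxb2 was at 29.1, 33.3 and 36.7 CPM against 97.5, 89.8 and 119 CPM, a log2 fold change of -1.63 (standard error 0.16). Hoxb3 was at 47.1, 54.5 and 46.3 CPM against 141, 109.9 and 140.2 CPM, a log2 fold change of -1.40 (standard error 0.17). No iHoxc9 library of these genes reached the lowest control library, and the same held for all 9 HoxB genes, against 17.7% of all genes.

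The central and posterior HoxB genes were lower as well. Hoxb6 was at 13.2, 21.0 and 18.2 CPM in iHoxc9 against 189, 160.2 and 188 CPM in control, with a log2 fold change of -3.36 (standard error 0.21, edgeR adjusted p = 1.57e-10), close to that of Hoxb4. Hoxb7 was at 4.38, 5.65 and 5.10 CPM against 27.1, 23.0 and 34.0 CPM, a log2 fold change of -2.47 (standard error 0.19). Hoxb8 was at 48.9, 67.7 and 63.4 CPM against 183, 188 and 161 CPM, a log2 fold change of -1.56 (standard error 0.16, edgeR adjusted p = 1.69e-07). Hoxb8 thus kept 33.8% of its control level between neighbours at 17.98% (Hoxb7) and 13.7% (Hoxb9). Hoxb9, the HoxB paralog of the induced gene, was at 1.02, 1.56 and 1.27 CPM against 15.1, 4.58 and 8.42 CPM. Its log2 fold change was -2.86 (standard error 0.34, edgeR adjusted p = 1.9e-06), and without the first control library it was -2.33. Hoxb1 had 0, 1 and 1 reads in iHoxc9 and 2, 10 and 5 in control, and was not called (adjusted p = 0.0667). The summed reads put its iHoxc9 level at 11.6% of control with a 95% exact interval of 1.31 to 49.1% for counting error, too wide to rank it among the other genes.

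The size of the fall did not follow position along the cluster. The log2 fold changes ran from -1.63 and -1.40 at Hoxb2 and Hoxb3 to -3.32, -2.85 and -3.36 at Hoxb4 to Hoxb6, then to -2.47, -1.56 and -2.86 at Hoxb7 to Hoxb9. Because each gene fell by its own factor, the order of levels per kilobase changed. Hoxb8 came first in iHoxc9 neurons at 22.8 ± 3.74 CPM per kilobase, ahead of Hoxb5 at 19.2 ± 3.18, Hoxb3 at 11.6 ± 1.07 and Hoxb2 at 9.47 ± 1.09 (SD, n = 3). Hoxb6, second in control, was behind them at 8.88 ± 2.02. The first place of Hoxb8 holds for merged exon lengths only. With basic annotation lengths Hoxb5, at 1895 bases in place of 2786, lay ahead of Hoxb8, at 2635 in both. The share of Hoxb8 rose from 15.6 ± 1.12% in control to 28.1 ± 0.745% in iHoxc9, without overlap, while the share of Hoxb4 went from 12.2 ± 1.21% to 6.52 ± 0.402%. The share of Hoxb6 went from 21.2 ± 2.31% to 10.9 ± 1.03%, and those of Hoxb2 and Hoxb3 from 6.80 ± 1.10% to 11.8% (range 10.6 to 12.4%) and from 7.14 ± 1.09% to 14.5 ± 1.70%. Hoxb6 to Hoxb9 together were at 43.6 ± 1.72% in iHoxc9 against 41.9 ± 2.97% in control, with overlapping groups (exact permutation test, p = 0.6, adjusted p = 0.72 over 6 comparisons). That comparison depended on the genes counted, since without Hoxb3 and Hoxb6 the share was 14.9 percentage points higher in iHoxc9 than in control.

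**Figure D3:**
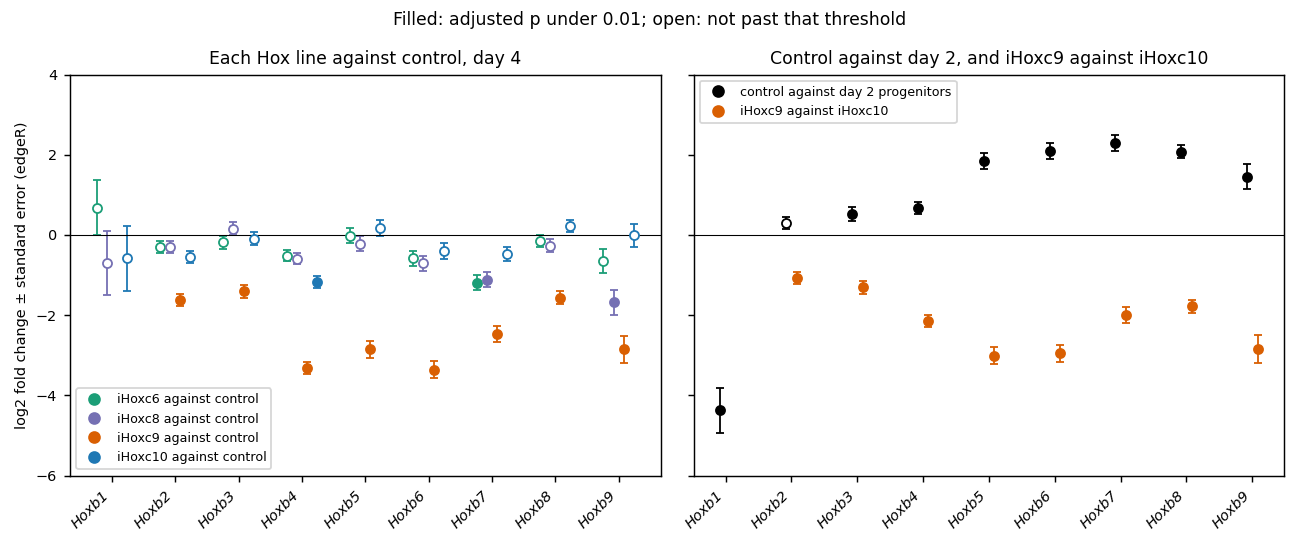
edgeR log2 fold change ± standard error (y axis) of each HoxB gene in cluster order (x axis). The left panel compares each iHox line with control and the right panel compares control with day 2 progenitors and iHoxc9 with iHoxc10. Filled points passed an adjusted p of 0.01, and Hoxb1 is left out where iHoxc9 held only 2 reads. All 8 iHoxc9 points in each panel lie below 0.

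iHoxc9 neurons were also compared with day 2 progenitors, the state from which Dox was added. Of the 9 HoxB genes, 7 were lower and 1 was higher, against 23.3% and 23.4% of all genes. Hoxb4 was at 79.9, 97.8 and 75.7 CPM on day 2 and thus above every iHoxc9 library, with a log2 fold change of -2.65 (standard error 0.15, edgeR adjusted p = 1.02e-12) for iHoxc9 against day 2. Hoxb5 and Hoxb6 were lower by log2 fold changes of -0.99 and -1.27. Levels of Hoxb4, Hoxb5 and Hoxb6 in iHoxc9 neurons thus lay under those of the progenitors and not only under those of control neurons. Hoxb7 did not pass the test, at 4.38, 5.65 and 5.10 CPM in iHoxc9 and 5.96, 7.29 and 3.90 CPM on day 2 (edgeR adjusted p = 0.457, log2 fold change -0.18). Hoxb8 was the gene that was higher, at 48.9, 67.7 and 63.4 CPM against 40.0, 51.4 and 34.6 CPM on day 2, with groups that overlapped and a log2 fold change of 0.52 (standard error 0.16, edgeR adjusted p = 0.00699). Day 2 and iHoxc9 libraries came from different runs and different lines.

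iHoxc10 neurons, induced with the other posterior group gene, kept most of the cluster. Only Hoxb4 was lower than in control, against 7.75% of all genes lower and 6.67% higher, and the summed level was 867, 1059 and 1235 CPM, which overlapped control (exact permutation test, p = 0.5, adjusted p = 0.5 over 6 comparisons). Hoxb4 was at 49.3, 61.8 and 67.8 CPM against 120.3, 137 and 147 CPM, a log2 fold change of -1.18 (standard error 0.14, edgeR adjusted p = 4.05e-06). Hoxb2 missed the threshold by little, with 58.7, 70.8 and 79.3 CPM, a log2 fold change of -0.55 and an adjusted p of 0.01002 by edgeR, and DESeq2 called it (adjusted p = 0.00388). Hoxb5 was at 326, 392 and 577 CPM and had the widest spread of the group for a gene over 1 CPM, with an SD of 30.2% of the mean. Hoxb8 was at 173, 227 and 218 CPM with a log2 fold change of 0.22 (standard error 0.15), and Hoxb9 at 8.68, 10.6 and 8.67 CPM with one of -0.01 (standard error 0.30). Hoxb6 and Hoxb7 had log2 fold changes of -0.40 and -0.48 with groups that did not overlap and adjusted p of 0.139 and 0.0564 by edgeR. Hoxb1 to Hoxb4 held 18.6 ± 1.95% of the summed level per kilobase in iHoxc10, against 26.1 ± 2.72% in control.

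iHoxc9 and iHoxc10 neurons were compared directly, within a run and with the same exposure to Dox. In iHoxc9, 8 of 9 HoxB genes were lower and 0 higher, against 2.4% of all genes lower and 2.6% higher, and 4 of 9 passed a log2 fold change below -2, against 0.597% of all genes. The largest differences were at Hoxb5, with a log2 fold change of -3.01 (standard error 0.21, edgeR adjusted p = 1.58e-09), at Hoxb6 with -2.95 (standard error 0.21) and at Hoxb9 with -2.84 (standard error 0.34). Hoxb4 differed by -2.14 (standard error 0.15) and Hoxb2 by -1.07 (standard error 0.15), and no library of iHoxc9 reached the lowest of iHoxc10 in any of the 9 genes, against 13.6% of all genes. Hoxb1 had 2 reads in iHoxc9 and 11 in iHoxc10 and was not called. The summed HoxB level of iHoxc9 was 22.1% of that of iHoxc10 (exact unpaired permutation test, p = 0.1, adjusted p = 0.12 over 6 comparisons).

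In iHoxc6 and iHoxc8 neurons, induced with brachial genes, most HoxB genes were not called against control. The iHoxc6 neurons shared both line and run with control but differed from it in Dox. Hoxb7 was the gene that was lower in iHoxc6, against 0.224% of all genes lower and 0.363% higher. It was at 12.2, 13.0 and 11.6 CPM against 27.1, 23.0 and 34.0 CPM, a log2 fold change of -1.19 (standard error 0.18, edgeR adjusted p = 0.000705). The other 8 genes did not pass the test, with log2 fold changes from -0.64 (Hoxb9) to 0.68 (Hoxb1). Hoxb4, at 87.2, 91.1 and 103 CPM, and Hoxb6, at 121, 122 and 116 CPM, lay below all control libraries without passing the test (edgeR adjusted p = 0.0442 and 0.09). The summed level was 936, 996 and 981 CPM, or 84.7% of control, and did not overlap it (exact permutation test, p = 0.1, adjusted p = 0.12 over 6 comparisons).

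In iHoxc8 neurons Hoxb7 and Hoxb9 were lower than in control, against 1.09% of all genes lower and 1.03% higher. Hoxb7 was at 12.1, 14.5 and 12.4 CPM, a log2 fold change of -1.11 (standard error 0.18, edgeR adjusted p = 0.000917), close to its value in iHoxc6. Hoxb9 was at 3.64, 2.20 and 2.91 CPM against 15.1, 4.58 and 8.42 CPM, a log2 fold change of -1.68 (standard error 0.31, edgeR adjusted p = 0.00281). Without the first control library, which held the highest Hoxb9 value, it was -1.15 with an adjusted p of 0.0188, and without the third iHoxc8 library its adjusted p was 0.0146. Hoxb7 missed the threshold without the third control library (edgeR adjusted p = 0.0109) or the first iHoxc8 library (0.0105), so that 1 of 9 genes was called when any of these 4 libraries was left out. Hoxb3 was at 152, 124 and 161 CPM, the highest mean of any group, and did not differ from control (log2 fold change 0.16, adjusted p = 0.601 by edgeR). Between iHoxc8 and iHoxc6 neurons 0 of 9 genes were called by edgeR, and Hoxb9, at a log2 fold change of -1.04 with an unadjusted p of 0.00292 and an adjusted p of 0.0377, was the only one with an unadjusted p under 0.05. The summed level in iHoxc8 was 80.5% of control. A log2 fold change below -2 was reached by 0 of 9 genes in iHoxc6, iHoxc8 and iHoxc10 neurons alike, against 0.0716%, 0.0812% and 0.711% of all genes in these comparisons.

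Over the 15 pairs of groups, Hoxb7 differed in 11, Hoxb4, Hoxb5, Hoxb6 and Hoxb8 in 9 each, Hoxb9 in 8, Hoxb3 in 7 and Hoxb1 and Hoxb2 in 5 each. The share of all genes called differed widely between pairs. Against day 2 progenitors it was 42.4% (control), 46.6% (iHoxc6), 44.6% (iHoxc8), 46.7% (iHoxc9) and 50.2% (iHoxc10). Against control it was lower, at 0.587% (iHoxc6), 2.12% (iHoxc8), 14.1% (iHoxc9) and 14.4% (iHoxc10). Between lines it was 3.55% for iHoxc8 against iHoxc6, 11.7% for iHoxc9 against iHoxc6, 11% for iHoxc10 against iHoxc6, 5.37% for iHoxc9 against iHoxc8, 2.93% for iHoxc10 against iHoxc8 and 4.99% for iHoxc9 against iHoxc10. The HoxB genes were called in 8, 8 and 7 of 9 where iHoxc9 was set against iHoxc6, iHoxc10 and iHoxc8, and in 2, 1 and 0 of 9 for iHoxc10 against iHoxc6, iHoxc10 against iHoxc8 and iHoxc8 against iHoxc6. Set in order of level, the groups fell into steps that differed between genes. For Hoxb2 the levels of control, day 2 progenitors, iHoxc6, iHoxc8 and iHoxc10 neurons followed each other without a difference between neighbours, and iHoxc9 lay apart below them (29.1 to 36.7 CPM against 58.7 to 79.3 CPM in iHoxc10). Hoxb3 had the same single step, with day 2 progenitors next to last. Hoxb4 ran from control (135 ± 13.3 CPM) over iHoxc6 (93.9 ± 8.48), iHoxc8 (89.7 ± 5.08) and day 2 progenitors (84.5 ± 11.8) to iHoxc10 (59.6 ± 9.46) and iHoxc9 (13.5 ± 1.24), and only the last 2 steps passed the test between neighbours. For Hoxb5 and Hoxb6 the control, iHoxc6, iHoxc8 and iHoxc10 neurons did not differ between neighbours, day 2 progenitors lay below them and iHoxc9 below those. For Hoxb7 the step lay between iHoxc6 (12.3 ± 0.723 CPM) and day 2 progenitors (5.72 ± 1.71 CPM), with iHoxc9 next to the latter (5.04 ± 0.636 CPM). Hoxb8 ended with iHoxc9 (60.0 ± 9.85 CPM) above day 2 progenitors (42.0 ± 8.55 CPM). For Hoxb9 no neighbouring groups differed, from control (9.37 ± 5.32 CPM) to iHoxc9 (1.28 ± 0.272 CPM), although 8 of the 15 pairs did.

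The other Hox clusters were set beside HoxB by paralog group, that is, by the number that genes at matching places in the 4 clusters share. Of the HoxA, HoxC and HoxD genes of groups 1 to 5, all of which had a mean over 1 CPM in control, 10 of 10 were lower in iHoxc9. In this comparison 7.13% of all genes were lower and 6.95% higher. Their median log2 fold change was -2.27. Of Hoxb1 to Hoxb5, 4 of 5 were lower. Hoxb1, at 0.212 CPM in control, was the gene not called and would not have met that level. Hoxb2 to Hoxb5 had log2 fold changes of -1.63, -1.40, -3.32 and -2.85, on both sides of that median. Hoxc5, at 1.96 ± 0.436 CPM against 196 ± 7.29 CPM, had the largest fall at -6.62 (standard error 0.20), beyond its paralog Hoxb5. Hoxa4 (-3.54), Hoxb4 (-3.32), Hoxc4 (-2.38) and Hoxd4 (-1.80) were all lower. In groups 6 to 9, Hoxb6, Hoxb7, Hoxb8 and Hoxb9 were lower. Hoxa6 (1.49 ± 0.538 CPM against 1.15 ± 0.706 CPM) and Hoxc6 (2.14 ± 0.185 against 3.18 ± 1.77 CPM) did not pass the test, nor did Hoxa7 (0.912 against 0.822 CPM, log2 fold change 0.15), and Hoxd8 was higher (1.26 ± 0.172 against 0.362 ± 0.0811 CPM, log2 fold change 1.79, edgeR adjusted p = 0.00123). These genes were at a few CPM or less in control, and Hoxd8 passed 1 CPM only in the group where it was high, while Hoxb6 and Hoxb8 were at 179 and 178 CPM in control. In iHoxc10 neurons Hoxa6 (log2 fold change 2.95), Hoxc6 (3.88) and Hoxd8 (3.28) were higher than in control and Hoxa7 was not called (0.80, edgeR adjusted p = 0.0749). None of Hoxb6 to Hoxb9 was called by edgeR, against 7.75% of all genes lower and 6.67% higher. Of these, 2, Hoxb6 and Hoxb7, had an unadjusted edgeR p under 0.05 and log2 fold changes below 0, and DESeq2 called 0. The difference between clusters itself was not tested.

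**Figure D4:**
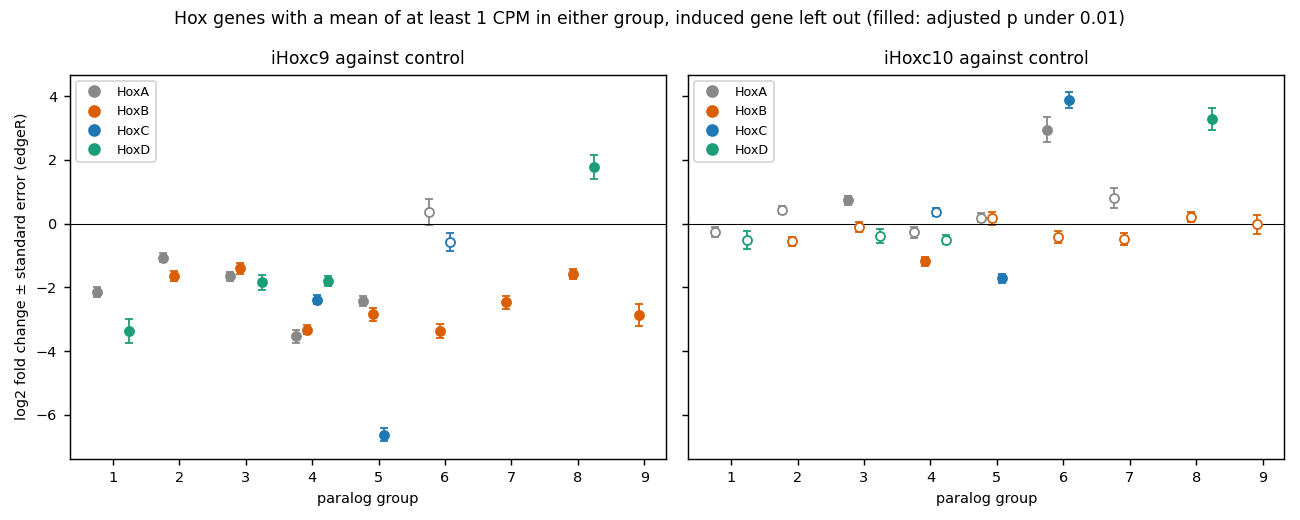
edgeR log2 fold change ± standard error (y axis) by paralog group (x axis) for Hox genes of the 4 clusters with a mean of at least 1 CPM in either group, in iHoxc9 (left) and iHoxc10 neurons (right) against control. The induced gene is left out and filled points passed an adjusted p of 0.01. In the left panel Hoxb6 to Hoxb9 lie between -3.36 and -1.56, where Hoxa6, Hoxc6 and Hoxd8 lie between -0.58 and 1.79 (Hoxd8 is under 1 CPM in control).

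Genes in and around the cluster were read from a list of 15, of which 11 were in the count table and 10 were tested. In iHoxc9 against control 1 of 10 was lower and 0 higher, against 7.13% and 6.95% of all genes, and the median log2 fold change was 0.08. Snx11, Cbx1 and Nfe2l1, whose distance from the cluster was not measured, had log2 fold changes of -0.29, -0.09 and 0.29, and none passed the test. Skap1, the large gene on the Hoxb1 side, was the gene that was lower, at 0.207 ± 0.0546 CPM against 1.37 ± 0.572 CPM (log2 fold change -2.69, standard error 0.67, edgeR adjusted p = 0.00546). Skap1 was also 5.84 CPM in the third day 2 library, the library with the highest Hoxb1, and 0.910 and 0.965 CPM in the others. Hoxb13, which lies beyond a long gap after Hoxb9, had no group mean over 0.0133 CPM in control or iHoxc9.

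Factors known to act on the HoxB cluster were read from a list of 30, of which 29 were tested. In iHoxc9 against control 3 were higher, 5 lower and 21 not called, against 6.95% of all genes higher and 7.13% lower, with a median log2 fold change of -0.07. The enzymes that break down retinoic acid differed from control in opposite directions. Cyp26a1 was at 131 ± 18.5 CPM in iHoxc9 and 5.87 ± 1.64 CPM in control, a log2 fold change of 4.48 (standard error 0.23, edgeR adjusted p = 8.87e-12), and Cyp26b1 was at 27.6 ± 7.22 and 232 ± 97.7 CPM, a log2 fold change of -3.07 (standard error 0.27). Day 2 progenitors held Cyp26a1 at 110 ± 16.2 CPM, with libraries that overlapped those of iHoxc9, and Cyp26b1 at 97.8 ± 20.0 CPM. The cofactors Pknox2 and Pbx3 were lower and Pknox1 was higher, while the retinoic acid receptors Rara, Rarb and Rarg and the polycomb genes Ezh2, Eed and Suz12 were not called in this comparison. Rxrg, a retinoid X receptor, was lower in all 4 iHox lines than in control, by log2 fold changes of -1.23 (iHoxc6), -1.30 (iHoxc8), -1.82 (iHoxc9) and -2.04 (iHoxc10). These comparisons share the control libraries, and Dox differs in each. In iHoxc10 Cyp26a1 was at 30.3 ± 10.5 CPM, and 6 of the 29 factors were higher and 1 lower, against 6.67% and 7.75% of all genes.

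Markers of cell types also differed between iHoxc9 and control neurons, a comparison in which 7.13% of all genes were lower and 6.95% higher. Of 7 motor neuron markers 4 were lower than in control and 0 higher, and their summed level was 298 to 324 CPM in iHoxc9, 544 to 571 CPM in control and 486 to 547 CPM in iHoxc10. Of 5 markers of hindbrain visceral motor and serotonergic neurons 4 were tested and 3 were lower, with a summed level of 7.28 to 13.0 CPM in iHoxc9, 33.1 to 36.5 CPM in control and 31.2 to 48.7 CPM in iHoxc10. Among the latter, Tbx20 was under the floor in iHoxc9 and 4.17 ± 0.187 CPM in control. The 5 markers of postmitotic neurons summed to 5183 to 6125 CPM in iHoxc9 and 4821 to 5304 CPM in control, and 1 of 5 was higher. Markers of spinal interneurons lay on the other side of control, with a summed level of 35.7 to 44.9 CPM in iHoxc9 against 16.6 to 20.9 CPM in control and 63.6 to 86.4 CPM in iHoxc10, and 2 of 8 were higher and 1 lower in iHoxc9 than in control. Of 6 motor neuron progenitor markers 2 were higher and 1 lower, with a summed level of 529 to 582 CPM in iHoxc9 against 291 to 622 CPM in control. The part of these markers in the HoxB differences was not tested.

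The genes whose levels were most like those of each HoxB gene were taken by Pearson's r of log2(CPM + 1) over the 18 libraries, among 12857 genes with a mean of at least 1 CPM and outside the Hox clusters. The libraries share group, line and run, so these values describe likeness over 6 groups. Hoxb2 was most like Metrn (r = 0.92), Hoxb3 most like Cyp26b1 (0.91), Hoxb4 most like Cmtm8 (0.95), Hoxb5 most like Ptpru (0.93) and Hoxb6 most like Bhlhe23 (0.96). For Hoxb7 the gene was Sstr1 (0.95), for Hoxb8 Vat1l (0.95) and for Hoxb9 5730596B20Rik (0.86). Hoxb1 was most like Cdh3 (0.99), a likeness carried by day 2, since over the 15 day 4 libraries it was 0.70. Within the cluster Hoxb2 and Hoxb4 were most like each other (0.97), as were Hoxb5 and Hoxb6 (0.96), while the highest value for Hoxb1 was 0.23, with Hoxb4, and 0.59 over the 15 day 4 libraries.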

How the data were processed

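RNA-seq counts of 18 libraries were used. The authors made polyA-selected stranded libraries, aligned single-end reads with STAR 2.7.0c to mm10, counted them on RefSeq genes with featureCounts and deposited raw counts per gene with replicates apart. Counts were analysed in R 4.3.3 with edgeR 4.0.16 (TMM, quasi-likelihood test, group as the term, genes kept if an iHox library held 1 count or more). Standard errors were derived from the F statistic. Calls used an adjusted p under 0.01, the study's threshold, also with its log2 fold change of 2. Sums and shares were tested by exact permutation (scipy 1.17.1). Exon lengths were merged GENCODE vM21 exons, and promoter windows came from RefSeq (GRCm38.p6). Members, lists and tests were chosen with earlier results of these data known. The text names all 9 members, listed neighbours and regulators, paralogs, and the gene most like each member. Snx11, Cbx1, Nfe2l1, Cyp26a1, Cyp26b1, Rxrg, Tbx20 and the cofactors were singled out of their lists after their values were seen.

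On simulated counts of 19615 genes for iHoxc9 against control, 100% of 200 genes with a log2 fold change of -3 were recovered by edgeR with 4 other calls. The changed genes were drawn from well-expressed genes only. The simulation thus does not cover smaller changes or genes as low as Hoxb1. Replicate numbers come from the labels. Between iHoxc9 and iHoxc10 neurons, same-numbered libraries deviated together (correlations of deviations from group means 0.579, 0.474 and 0.651, all over 0.1), and the numbers were taken to pair them. In the other comparisons the numbers were not taken as pairs. The edgeR and permutation tests printed for iHoxc9 against iHoxc10 treat the libraries as unpaired. Only the replicate block, fitted over all 6 groups, used the numbers. The alternatives were DESeq2 1.42.0, its size factors, other filters and thresholds, fits restricted to the 2 groups at hand, the replicate block, other scalings of sums and shares, and each library left out in turn. Groups of 3 were not tested for outliers.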

Additional observations from a re-analysis of the deposited data

Results flagged for a closer look

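Among lines that share a sequencing run, the effect against control differed between iHoxc9 and iHoxc10 neurons for 8 of the 9 HoxB genes, against 4.99% of all genes. The test was edgeR's test of the difference itself, in which control cancels, so it is the contrast of iHoxc9 with iHoxc10 given above. The iHoxc9 effect minus the iHoxc10 effect, on the log2 scale, was -1.07 for Hoxb2, -1.30 for Hoxb3, -2.14 for Hoxb4, -3.01 for Hoxb5, -2.95 for Hoxb6, -1.99 for Hoxb7, -1.78 for Hoxb8 and -2.84 for Hoxb9, with edgeR adjusted p from 1.27e-09 to 4.47e-05. In each, all 3 iHoxc9 libraries lay below all 3 iHoxc10 libraries, against 13.6% of all genes. The lines differ in the induced gene and in the clone, which cannot be told apart. Effects of lines from different runs were not set against each other here.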

How the results depend on the processing

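The 8 HoxB genes called in iHoxc9 against control, and the 8 against iHoxc10, were called under each alternative test, scaling and filter and with each library left out; with a log2 fold change beyond 2 these counts were 5 and 4, and that in control against day 2 progenitors fell from 8 to 4. That fold left 0 called in iHoxc6, iHoxc8 and iHoxc10. With a replicate block the counts were 8 in iHoxc9, 8 against iHoxc10, 1 in iHoxc6, 3 in iHoxc8, 1 in iHoxc10 and 7 in control against day 2; outside iHoxc9 and iHoxc10 the libraries share only a number, with correlations of deviations from -0.512 to 0.352. DESeq2's Wald test called 2 in iHoxc6 (with Hoxb4), 4 in iHoxc8 (with Hoxb4 and Hoxb6) and 2 in iHoxc10 (with Hoxb2), and no filter or a filter of 10 counts in 3 libraries gave 2 in iHoxc10. With a library left out, iHoxc8 had 1 to 4 and iHoxc10 1 to 2. In iHoxc8, 1 was called without the first or the third control library or without the first or the third iHoxc8 library and 4 without the third day 2 library; in iHoxc10, 2 were called without the second control library or without the third library of day 2, iHoxc6, iHoxc8 or iHoxc9. Hoxb3 in control against day 2 lost its call in 8 of 12 alternatives.

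Of 648 fold changes of single genes under the alternatives, 618 kept direction and side of the threshold, 12 fell under it, 9 passed it and 9, all of uncalled genes, changed sign. With a library left out, the log2 fold change ran from -0.0927 to 0.134 for Hoxb5 in iHoxc6 (above 0 without the second control or the first iHoxc6 library), from -1.38 to 0.0394 for Hoxb1 in iHoxc8 and from -1.07 to 0.148 for Hoxb1 in iHoxc10 (both above 0 without the second control library). In iHoxc10 it ran from -0.0698 to 0.334 for Hoxb5 (below 0 without the third iHoxc10 library) and from -0.338 to 0.519 for Hoxb9 (above 0 without the first control, the first iHoxc10 or the third iHoxc10 library, and 0.0326 with the replicate block). The log2 ratio of summed levels of iHoxc10 to control ran from -0.251 to 0.00138 with a library left out. Without Hoxb3 and Hoxb6 the share of Hoxb6 to Hoxb9 differed by 11.2 percentage points in control minus day 2, 14.9 in iHoxc9 minus control and 10.97 in iHoxc9 minus iHoxc10. The last was 1.38 with all genes and ran from -0.446 to 2.40 with a library left out. The cause was not tested. Basic annotation lengths, an alternative chosen after seeing the data, changed the shares of single genes. Hoxb2 had 1628 bases in that annotation and 3488 merged, and Hoxb5 had 1895 and 2786, while Hoxb8 had 2635 in both. In iHoxc9 neurons they lowered the share of Hoxb8 and raised those of Hoxb2 and Hoxb5. The shares printed hold for merged lengths. The limit of depth is Hoxb1, with 17 reads in control.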
